A study of Mus musculus with 6 samples.

Results

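The Cep genes encode centrosomal proteins, named by the approximate size of each product. The 30 genes described here were all rows of the deposited count table whose symbol is Cep followed by digits and at most lower-case letters, out of 44788 rows, with no filter on counts. All 30 passed the filter on low counts that left 16581 genes for the test. The group was picked by symbol, but it was proposed with the difference between the groups of this study in view, so the fold changes below are a description and support nothing by themselves. One symbol, Cep110, is an older name of Cntrl, which encodes centriolin.

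A centrosome holds a pair of centrioles, barrels of microtubules surrounded by pericentriolar material that nucleates further microtubules. The centrioles are copied once per cell cycle, and the older one carries appendages with which it can dock at the cell surface and grow a primary cilium. Cep proteins act at each of these steps, as scaffolds for the copying, as caps and appendages, as the tether between both centrioles, as gate of the cilium and, in Cep55, as the organiser of the final cut between daughter cells. In the uterus on day 4 of pregnancy the stroma starts to divide and epithelial division ceases.

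The libraries came from scraped endometrium (uterine lining) of females of the outbred ICR strain in a model of adenomyosis, a disease in which endometrial tissue lies within the muscle wall. All animals of both groups had received oral tamoxifen as pups (2.7 µmol/kg, days 2 to 5), which induces the disease. After 75 days they were divided into an agonist group, injected intraperitoneally with the GnRH agonist labelled Decapetyl (daily 1.5 µg per 100 g of body weight, days 3 to 9 of estrus), and a no-agonist group given solvent, each of 8 mice. Mating followed 4 weeks later, and tissue was taken on day 4 of pregnancy. Each group had 3 libraries. No label links a library to a single mouse, pool or litter, so p-values measure the spread between libraries, which may be partly technical.

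Libraries held 11720958 to 14104266 counts, and 3 counts of the unscaled total correspond to 0.213 to 0.256 CPM (counts per 1e+06 counts of a scaled library, the unit of all levels here). The Cep genes had 12 to 2930 counts in any one library. Epithelial and stromal genes that define the endometrium were present in all 6 libraries, with Epcam at 388 to 607 CPM in agonist libraries and 416 to 740.5 CPM in no-agonist libraries. Agonist library 1 held 173 CPM of Ovgp1, an oviduct glycoprotein, against 3.85 and 14.2 CPM in the other agonist libraries and 1.21 to 2.94 CPM in no-agonist libraries. In bulk tissue, fewer cells of a type and less RNA per cell cannot be told apart.

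Levels per length spanned a 47.2-fold range over the 30 genes. Cep170b, a paralogue of the appendage protein gene Cep170, was the most abundant at 22.8 ± 5.39 CPM per kb of exon (mean ± SD over the 6 libraries). Cep19 followed at 16.3 ± 3.69 CPM per kb. The pair was apart in agonist libraries (18.1 to 21.1 against 10.8 to 15.1 CPM per kb). In no-agonist libraries they overlapped (19.1 to 31.9 against 18.2 to 20.0 CPM per kb), and the difference was not tested. At the low end stood Cep85l at 0.504 ± 0.408, Cep72 at 0.502 ± 0.217 and Cep112 at 0.483 ± 0.203 CPM per kb, which overlapped one another. Of the 30 genes, 26 lay under the median of the genes tested, 6.11 CPM per kb (15798 genes with an exon length).

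**Figure D1:**
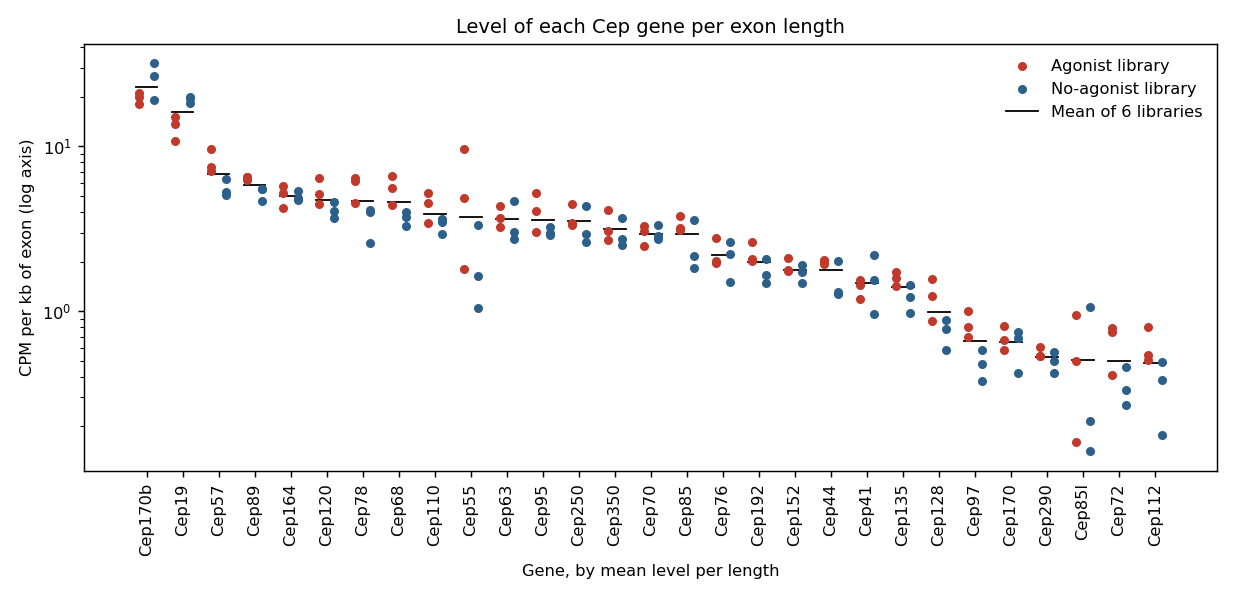
Level of the Cep genes in each library, as CPM per kb of exon on a log axis, with agonist libraries to the left of no-agonist libraries and a line at the mean of all 6. Cep170b and Cep19 stand above the rest, Cep19 with its agonist libraries below its no-agonist libraries, and Cep55 and Cep85l show the widest spread between libraries.

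The 6 promoters below belong to Cep genes picked from the comparison, and none of these genes passed its adjusted threshold. Cep97, Cep89 and Cep112, whose groups also did not overlap, are not printed. Cep55 and Cep85 were the genes whose libraries stood in the same order as those of the mitotic genes. Cep57, Cep68 and Cep78 had the smallest p-values toward higher levels, and Cep19 was the one gene whose agonist libraries all lay lower. Each sequence is the 250 bases before the RefSeq start on build GRCm38.p6, 5′ to 3′ on the strand of the gene.
Cep55, chr19:38054734-38054983, plus strand: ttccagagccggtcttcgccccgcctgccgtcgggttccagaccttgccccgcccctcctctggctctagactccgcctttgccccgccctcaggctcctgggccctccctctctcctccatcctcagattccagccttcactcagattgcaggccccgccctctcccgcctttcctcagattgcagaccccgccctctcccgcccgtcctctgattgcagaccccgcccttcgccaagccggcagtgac
Cep85, chr4:134187086-134187335, minus strand: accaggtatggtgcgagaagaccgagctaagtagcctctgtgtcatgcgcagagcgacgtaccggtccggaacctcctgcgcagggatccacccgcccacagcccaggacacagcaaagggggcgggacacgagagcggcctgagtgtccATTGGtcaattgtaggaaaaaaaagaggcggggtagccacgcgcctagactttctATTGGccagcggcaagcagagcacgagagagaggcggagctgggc
Cep57, chr9:13827108-13827357, minus strand: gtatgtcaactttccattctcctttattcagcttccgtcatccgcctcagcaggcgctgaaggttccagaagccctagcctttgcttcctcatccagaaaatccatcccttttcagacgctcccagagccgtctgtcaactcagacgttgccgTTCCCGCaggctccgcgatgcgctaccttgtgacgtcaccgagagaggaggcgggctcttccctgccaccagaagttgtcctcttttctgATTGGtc
Cep68, chr11:20249425-20249674, minus strand: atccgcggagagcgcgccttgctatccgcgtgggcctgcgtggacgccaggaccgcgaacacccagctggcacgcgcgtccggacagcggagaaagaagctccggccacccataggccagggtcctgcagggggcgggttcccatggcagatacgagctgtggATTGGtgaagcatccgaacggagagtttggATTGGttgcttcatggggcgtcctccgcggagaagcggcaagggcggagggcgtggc
Cep78, chr19:15984990-15985239, minus strand: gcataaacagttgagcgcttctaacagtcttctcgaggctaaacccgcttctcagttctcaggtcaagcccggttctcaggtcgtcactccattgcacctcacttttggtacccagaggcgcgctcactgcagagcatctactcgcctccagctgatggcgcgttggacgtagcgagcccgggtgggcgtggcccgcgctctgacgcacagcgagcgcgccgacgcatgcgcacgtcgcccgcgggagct
Cep19, chr16:32099539-32099788, plus strand: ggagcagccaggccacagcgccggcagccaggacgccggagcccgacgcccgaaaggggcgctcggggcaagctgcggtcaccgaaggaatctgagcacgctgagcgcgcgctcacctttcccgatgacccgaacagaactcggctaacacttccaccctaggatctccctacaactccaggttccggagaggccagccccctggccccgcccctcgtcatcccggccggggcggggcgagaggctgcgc
Capitals mark matches, on either strand, to 6 short motifs, namely the cell cycle element CHR (TTTGAA), the CCAAT box (CCAAT), an E2F site (TTCCCGC), an ETS site (CCGGAAG), the palindromic NRF1 site and a part of the RFX factors' X-box (GTTGCCA). Cep85 and Cep68 each carry a pair of CCAAT boxes on the other strand, and Cep57 carries 1 such box and 1 E2F site. The windows of Cep55, Cep78 and Cep19 hold none of the 6.

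Of the 30 genes, 25 had a promoter window in RefSeq. The E2F letters occurred in 9 of these 25 windows, or 36.0%, against 6.79% of 11126 promoters of genes tested. Those 9 belong to Cep112, Cep128, Cep152, Cep170, Cep41, Cep44, Cep57, Cep70 and Cep110. The CCAAT box occurred in 11 of 25 (44.0% against 35.9%), CHR in 2 (8.00% against 10.7%), the ETS site in 3 (12.0% against 13.1%), the X-box part in 2 (8.00% against 3.14%) and the NRF1 site in 0 (against 1.56%). Over all 27025 promoters the shares were 3.86% for E2F, 34.5% for CCAAT, 16.3% for CHR, 7.07% for ETS, 3.70% for the X-box part and 0.777% for NRF1. A match of letters is not a binding site.

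The Cep genes lay on 15 chromosomes, all 30 as protein-coding genes, and 9 of the 30 start within 500 bases of an oppositely directed coding gene, against 12.4% of 13768 coding genes tested (GENCODE M21, GRCm38). Cep19 is one of them, with its start 60 bases from that of Pigx, an enzyme subunit of GPI anchor synthesis. Pigx, which did not pass the adjusted threshold either, had a log2 fold change of -0.48 beside -0.55 ± 0.20 for Cep19. The other neighbours tested ranged from -0.20 for Fbxo8, beside 0.39 for Cep44, to 0.49 for Psmg2, beside 0.09 for Cep76. Tshr stood at 0.00 beside 0.71 for Cep128, and Ddx5 at -0.02 beside 0.43 for Cep95. Anapc13 stood at 0.25 beside 0.11 for Cep63, and Tmtc3 at 0.10 beside 0.17 for Cep290. Likeness within the pairs was not tested. Exons of 8 Cep genes share bases with exons on the opposite strand, namely those of Cep290, Cep250, Cep85l, Cep112, Cep170, Cep70, Cep95 and Cep63, so their counts are uncertain where strand was not used in counting. The overlap was 239 bases between Cep63 and Anapc13, a subunit gene of the anaphase-promoting complex, which measured 47.1, 39.7 and 32.6 CPM in agonist libraries against 31.0, 37.5 and 31.7 CPM in no-agonist libraries.

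The comparison asked which of these genes differed in the endometrium after GnRH agonist treatment. Most of them lay somewhat higher with the agonist. The log2 fold change of agonist over no agonist was above 0 for 25 of 30 genes and below 0 for 5, with a median of 0.33 (quartiles 0.12 and 0.51). Over all genes tested 52.2% lay above 0 and 47.8% below, with a median of 0.02. Of the 13044 genes within the CPM range of the Cep genes, 52.5% lay above 0. In edgeR's quasi-likelihood fit over all genes, 0 Cep genes reached an adjusted p (Benjamini-Hochberg) under 0.05, the smallest being 0.482 for Cep19, and 0 other genes did (0.0% higher and 0.0% lower). Unadjusted p-values under 0.05 were found for 3 Cep genes that lay higher (4.17% of all genes tested) and for 1 that lay lower (5.09%). DESeq2, edgeR's likelihood ratio test and limma-voom also called 0 Cep genes, and at an unadjusted p under 0.05 they placed 6, 2 and 4 of them higher and 1 lower each. The same threshold took in 4.81% of all genes higher and 5.88% lower with DESeq2, 4.46% and 4.94% with the likelihood ratio test, and 3.97% and 5.25% with limma-voom. At the adjusted threshold, DESeq2 called 0.87% higher and 1.56% lower, the likelihood ratio test 0.627% higher and 0.989% lower, and limma-voom 0.0% in either direction.

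All 3 agonist libraries lay above all 3 no-agonist libraries for 6 of 30 Cep genes, a separation seen for 6.94% of all genes tested, and below them for 1, as for 7.61% of all. Since the contrast was known when the group was proposed, nothing further is read from these shares. The summed level of the 30 genes did not separate the groups, at 765, 780.0 and 833 CPM in agonist libraries 1 to 3 against 761, 784 and 685 CPM in no-agonist libraries 1 to 3. Cep170b alone supplied 158 ± 12.3 CPM of that sum in agonist libraries and 207 ± 51.4 CPM in no-agonist libraries (SD, n = 3 each). The higher levels of most members and the lower level of the most abundant one stood side by side in the sum.

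**Figure D2:**
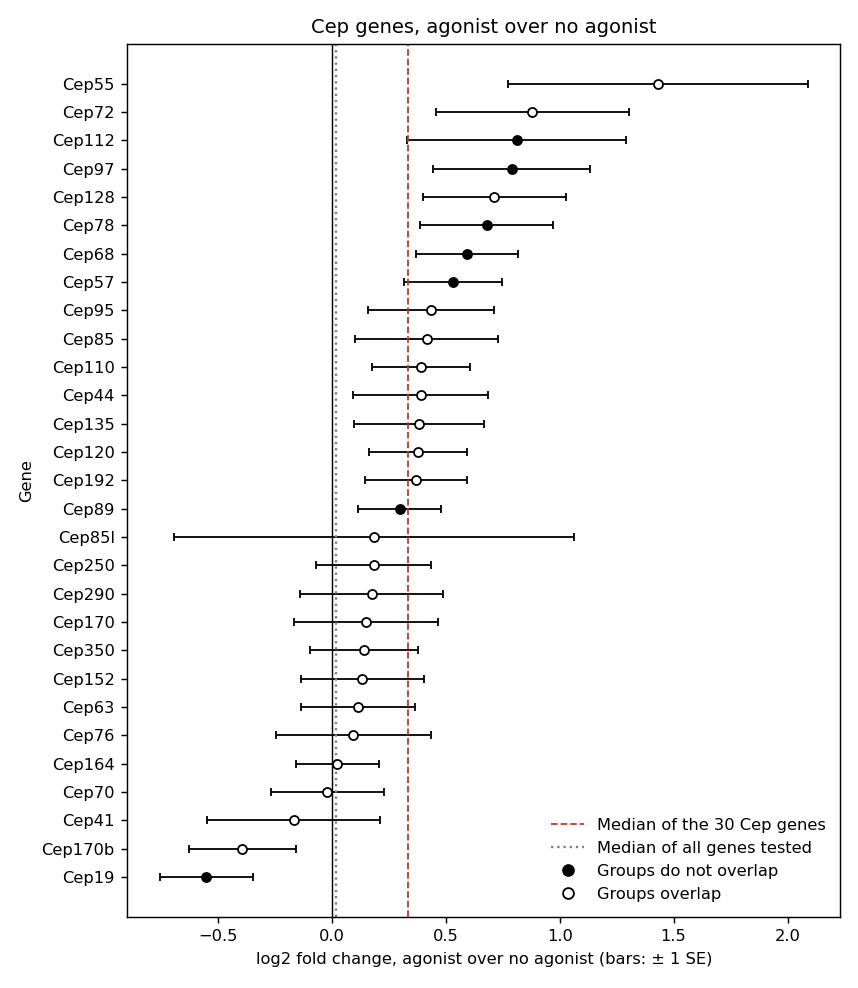
Log2 fold change of the Cep genes, agonist over no agonist, with bars of ± 1 SE from edgeR. Filled points mark the 7 genes whose groups do not overlap, and the dashed and dotted lines mark the medians of the Cep genes (0.33) and of all genes tested (0.02).

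Among the scaffold proteins of the mother centriole, on which a new centriole is started, all 5 genes lay above 0. Cep63 had the opposite sign in 1 of 14 alternative settings, at -0.03 with 1 library left out. Cep57, which builds the ring around the centriole together with Cep63 and Cep152 (chromosome 9, 13807792 to 13827107, GRCm38 as for all positions), measured 29.4, 31.2 and 40.2 CPM in agonist libraries 1 to 3, against 22.0, 21.3 and 26.5 CPM in no-agonist libraries 1 to 3. The groups did not overlap, and the difference of the means was 1.45-fold (log2 fold change 0.53 ± 0.21 SE). Its ring partners had smaller fold changes, a difference between the genes that was not tested. Cep63 measured 35.1, 31.3 and 41.5 CPM with the agonist and 26.2, 29.1 and 44.5 CPM without it, and Cep152, which brings the kinase PLK4 to the ring, 10.1, 10.2 and 12.1 CPM with the agonist against 10.0, 10.96 and 8.54 CPM without it. For both, the groups overlapped and the log2 fold change (0.11 ± 0.25 for Cep63 and 0.13 ± 0.27 for Cep152) was smaller than its error.

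Cep192, a scaffold of the pericentriolar material that also recruits PLK4, measured 25.3, 32.7 and 25.9 CPM in agonist libraries, against 18.6, 25.8 and 20.7 CPM in no-agonist libraries. Agonist library 2 and no-agonist library 2 held the highest value of their groups, and the groups overlapped at their edge. Cep85, which binds the PLK4 partner STIL, measured 16.9, 19.8 and 16.5 CPM with the agonist against 11.3, 19.0 and 9.64 CPM without it. Its log2 fold change of 0.41 ± 0.31 was not much larger than its error.

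The genes for centriole assembly, length and the ripening of centrioles into centrosomes were also all above 0, 6 of 6. Cep76 had the opposite sign in 2 of 14 alternative settings, down to -0.09 with 1 library left out. Cep97, which caps the growing end of the centriole together with CP110 (chromosome 16, 55899888 to 55934855), measured 6.42, 7.34 and 9.16 CPM in agonist libraries and 5.36, 3.48 and 4.41 CPM in no-agonist libraries. Every agonist library lay above every no-agonist library, by 1.73-fold in the means (log2 fold change 0.79 ± 0.34). Cep78, a protein of the mother centriole wall (chromosome 19, 15955773 to 15984989), separated as well, with 14.04, 19.2 and 20.0 CPM with the agonist against 12.8, 12.4 and 8.08 CPM without it. That was 1.60-fold (log2 fold change 0.68 ± 0.29).

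Cep135, of the cartwheel from which a new centriole grows, measured 12.4, 10.3 and 11.5 CPM in agonist libraries, against 8.76, 7.05 and 10.4 CPM in no-agonist libraries. Agonist library 2 lay just under no-agonist library 3, so the groups overlapped. Of the other 3 genes, Cep120, which lengthens centrioles, had a log2 fold change of 0.38 ± 0.21, Cep44, needed for the ripening step, 0.39 ± 0.30 and Cep76, a limiter of repeated copying, 0.09 ± 0.34. The groups overlapped for each of the 3.

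Appendage genes were mixed. Cep89, a distal appendage protein (chromosome 7, 35397035 to 35438689), separated by a small step, with 32.0, 32.9 and 33.0 CPM in agonist libraries against 28.0, 28.0 and 23.7 CPM in no-agonist libraries (log2 fold change 0.30 ± 0.18). Cep164, the distal appendage protein that recruits the cilium kinase TTBK2, measured 57.4, 52.1 and 42.5 CPM with the agonist against 53.5, 48.5 and 47.6 CPM without it. At a log2 fold change of 0.02 ± 0.18, its groups lay on top of each other. So 1 of the pair of distal appendage genes separated and the other did not, a difference between them that was not tested.

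Of the subdistal group, Cep170 measured 10.5, 12.2 and 14.6 CPM in agonist libraries against 13.6, 7.66 and 12.4 CPM in no-agonist libraries, with overlap (log2 fold change 0.15 ± 0.31). Its paralogue Cep170b went the other way, with 145, 169 and 160.0 CPM with the agonist against 214, 255 and 153 CPM without it. No-agonist libraries 1 and 2 lay above all agonist libraries and no-agonist library 3 among them, and the log2 fold change was -0.39 ± 0.23. The difference between the paralogues was not tested. Cep128, a subdistal appendage protein, had a log2 fold change of 0.71 ± 0.31 with 12.3 to 22.1 CPM in agonist libraries and 8.17 to 12.5 CPM in no-agonist libraries. Cep112 (chromosome 11, 108425192 to 108860615) separated at low levels, with 3.37, 3.12 and 4.92 CPM with the agonist against 3.02, 2.35 and 1.10 CPM without it, the last of which rests on 12 counts.

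The linker that tethers both centrioles was represented by a pair of genes. Cep68 (chromosome 11, 20227037 to 20249429) measured 25.8, 32.8 and 38.6 CPM in agonist libraries, against 23.4, 21.9 and 19.2 CPM in no-agonist libraries. Its groups separated, with agonist library 3 highest and no-agonist library 3 lowest, and the means differed 1.51-fold (log2 fold change 0.59 ± 0.22). Cep250, which anchors the linker to the centriole ends, measured 46.7, 34.5 and 35.5 CPM with the agonist against 45.1, 30.6 and 27.1 CPM without it, with overlap (log2 fold change 0.18 ± 0.25). The satellite protein gene Cep72, whose product sits on granules around the centrosome, measured 3.37, 6.11 and 6.46 CPM with the agonist against 2.72, 3.74 and 2.20 CPM without it. Agonist library 1 of Cep72 lay among the no-agonist libraries, with a log2 fold change of 0.88 ± 0.42.

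The genes of the ciliary base, gate and shaft lay below 0 in 3 of 5. That count was 2 without no-agonist library 1, where Cep41 turned to 0.15, and 4 without agonist library 3, where Cep350 turned to -0.05. Cep19, which brings the small GTPase RABL2 to the ciliary base (chromosome 16, 32099800 to 32108069), measured 18.9, 23.8 and 26.5 CPM in agonist libraries, against 31.9, 34.6 and 35.0 CPM in no-agonist libraries. It was the only one of the 30 genes with all agonist libraries below all others, at a 1.47-fold lower mean (log2 fold change -0.55 ± 0.20). Cep350, the anchor on which Cep19 sits, had a log2 fold change of 0.14 ± 0.24.

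Cep290, of the transition zone that gates the cilium, measured 6.18, 6.25 and 7.08 CPM in agonist libraries against 4.91, 6.61 and 5.79 CPM in no-agonist libraries, with overlap (log2 fold change 0.17 ± 0.31). Cep41, needed for the glutamylation of ciliary tubulin, stood at -0.17 ± 0.38.

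Cep55, which collects the abscission machinery at the midbody (chromosome 19, 38055011 to 38074423), had the largest log2 fold change of the 30, 1.43 ± 0.66, and also one of the widest spreads. It measured 14.04, 28.0 and 5.23 CPM in agonist libraries 1 to 3, against 4.76, 9.75 and 3.03 CPM in no-agonist libraries 1 to 3. Agonist library 3 lay below no-agonist library 2, so the groups overlapped. Without agonist library 2 the log2 fold change was 0.72.

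Of the 4 genes placed in no role group, Cep110 (Cntrl) had a log2 fold change of 0.39 ± 0.22, Cep95 0.43 ± 0.28 and Cep70 -0.02 ± 0.25, and the groups overlapped for each. Cep110, as Cntrl, was on the list of appendage partners, but it was not counted there. Cep85l, a relative of Cep85, measured 7.54, 1.29 and 4.00 CPM in agonist libraries, against 1.74, 1.13 and 8.45 CPM in no-agonist libraries. Agonist library 1 and no-agonist library 3 were high, the same libraries in which the smooth muscle markers had their highest median level (0.65 and 1.49 on a centred log2 scale, against -1.12 to 0.15 in the others). Its exons share 580 bases with opposite-strand exons of Pln, which encodes the muscle calcium pump regulator phospholamban, and of Gm47641. Pln measured 16.8, 0.815 and 6.23 CPM with the agonist and 1.43, 1.91 and 6.61 CPM without it. Without a stated strand setting, reads in the shared bases cannot be told apart, while most of the 7986 exon bases of Cep85l are not shared. The log2 fold change of Cep85l, 0.18 ± 0.88, turned to -0.50 when agonist library 1 was left out and reached 1.57 when no-agonist library 3 was.

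**Figure D3:**
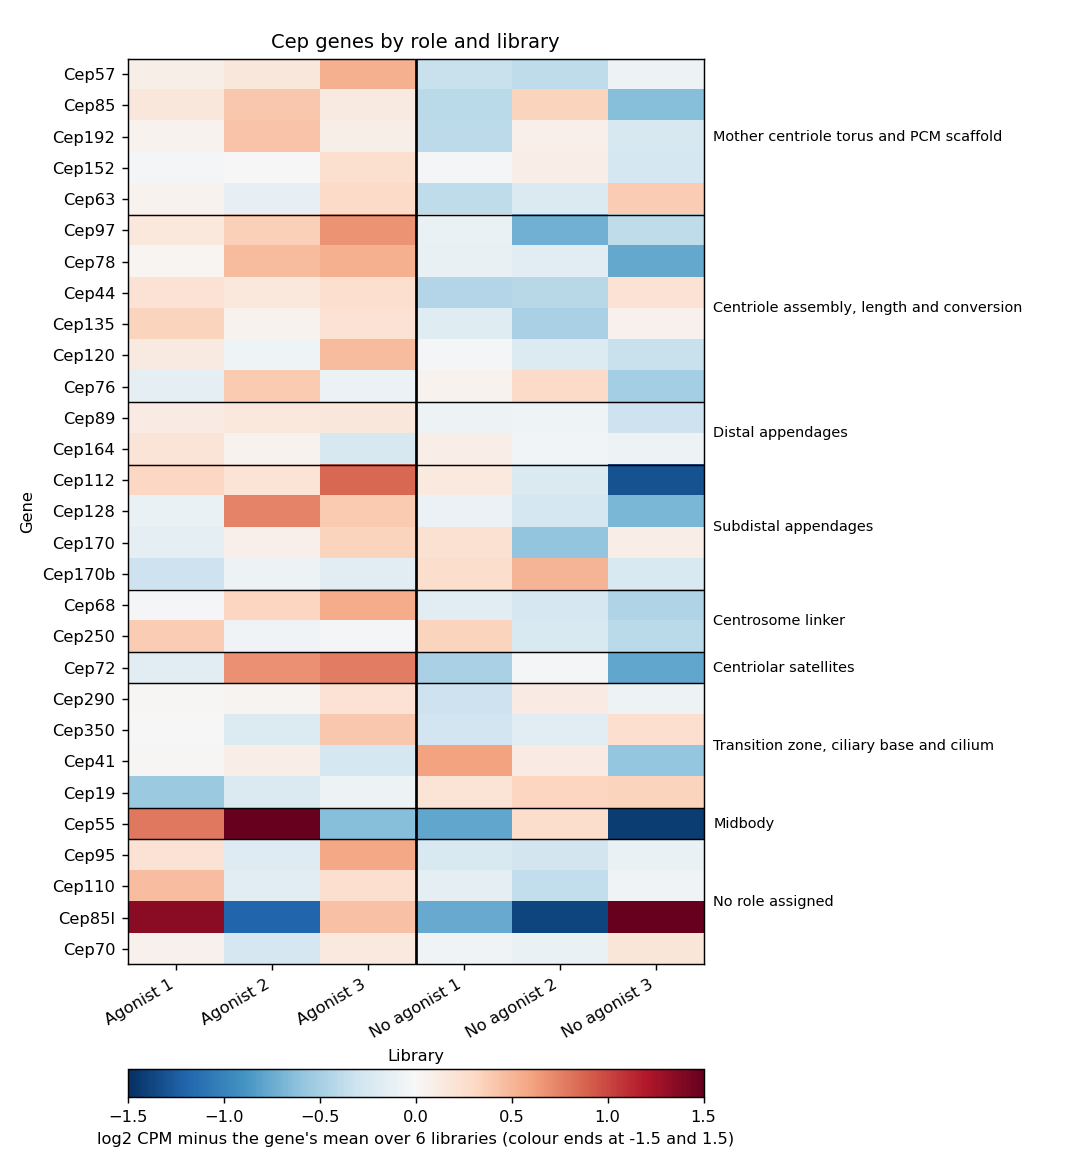
Level of the Cep genes in each library, as log2 CPM minus the mean of the gene over the 6 libraries, with genes grouped by role and agonist libraries left of the line. Red is above and blue below the mean of the gene, agonist library 3 is the highest of the 6 for 14 genes and no-agonist library 3 the lowest for 13, and Cep55 and Cep85l reach the ends of the colour range.

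The libraries within a group were not alike for these genes. Agonist library 3 held the highest level of the 6 for 14 of 30 Cep genes, and for 3484 of all 16581 genes tested, and no-agonist library 3 the lowest for 13, and for 3877 of all genes. The median level of the 30, centred on each gene's mean, was 0.05, 0.06 and 0.23 in agonist libraries 1 to 3, against -0.10, -0.16 and -0.24 in no-agonist libraries 1 to 3 (log2 scale). The groups were apart in this median, which was not particular to the Cep genes. The endothelial markers were also apart, at 0.35, 0.58 and 0.00 against -0.07, -0.29 and -0.40. So were the centriole assembly partners and, in the other direction, the epithelial markers, while intraflagellar transport genes overlapped. Without agonist library 3 the median log2 fold change of the Cep genes was 0.24, with 24 of 30 genes above 0.

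The mitotic genes shared an order of libraries. The 20 mitotic genes tested all lay above 0 (median 1.20), with 0 past the adjusted threshold in either direction, and their median level was 0.57, 1.70 and -0.61 in agonist libraries 1 to 3, against -0.50, 0.32 and -1.44 in no-agonist libraries 1 to 3 on the same scale. Agonist library 3 held the highest agonist value for 18 of 30 Cep genes, and for 33.2% of all genes tested. It had the lowest mitotic level of the agonist group. Without agonist library 2 the mitotic median was 0.47. All agonist libraries lay above all others for 1 of the 20 mitotic genes and below them for 0 (6.94% and 7.61% of all genes tested). The proliferation marker Mki67 measured 72.0, 131 and 41.3 CPM in agonist libraries against 23.9, 67.1 and 15.6 CPM in no-agonist libraries, and the centrosomal kinase genes Aurka and Plk1 were likewise highest in agonist library 2, at 54.4 and 49.2 CPM.

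In both groups the mitotic genes stood in the library order 2, 1, 3 from high to low, and 19 of the 20 followed it in both. Of the 30 Cep genes 2 did so, Cep55 and Cep85 (6.67%), a share near that of all genes tested (5.08%). Among the cytokinesis and abscission partners it was 9 of 15, all of them kinesins and regulators of the spindle midzone and contractile ring. The list median was 0.73, with 0.09 without agonist library 2 and 1.12 without agonist library 3. Pdcd6ip, which encodes the Cep55 partner ALIX, stood at 198, 179 and 156 CPM in agonist libraries against 235, 246 and 291 CPM in no-agonist libraries, all agonist libraries lying below. Of the 15 genes, 0 separated higher and 1 lower (6.94% and 7.61% of all genes tested). Chmp4b, of the ESCRT filaments that cut the bridge, had a log2 fold change of -0.58 ± 0.26 with overlapping groups.

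The partners of the Cep proteins were tallied by the same fit, and 0 of them passed the adjusted threshold in either direction. Of 31 tested centriole assembly partners, 27 lay above 0 with a median of 0.52, which was 0.27 without agonist library 2. All agonist libraries lay above all others for 8 of the 31 and below them for 0 (6.94% and 7.61% of all genes tested). Haus4, a subunit of the augmin complex that branches spindle microtubules, was named for its small p-value. It had 40.1, 42.2 and 56.8 CPM in agonist libraries against 33.0, 21.2 and 27.8 CPM in no-agonist libraries, and its groups did not overlap. Ccp110, the partner of Cep97 in the centriole cap, measured 15.3, 18.1 and 15.5 CPM with the agonist against 10.9, 11.7 and 11.8 CPM without it, also apart. Plk4, the kinase that starts centriole copying, measured 6.66, 19.4 and 8.39 CPM with the agonist against 5.96, 7.22 and 2.85 CPM without it, and Stil 3.13, 13.6 and 1.39 CPM with the agonist against 2.34, 4.35 and 1.19 CPM without it, both highest in agonist library 2. Sass6 and Cenpj, of the cartwheel and centriole wall, had log2 fold changes of 0.35 and 0.46 with overlapping groups.

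Genes of the pericentriolar material lay above 0 in 14 of 17 tested (median 0.25, and 0.40 without no-agonist library 1), with small values for the scaffold Pcnt (0.21), Cdk5rap2 (0.29) and the nucleator Tubg1 (0.22). Of the 17 genes, 1 separated higher and 0 lower (6.94% and 7.61% of all genes tested). Satellite and linker partners lay above 0 in 11 of 13 (median 0.27, and 0.14 without agonist library 3), Pcm1, the core of the satellites, among them at 0.32. Of these 13 genes, too, 1 separated higher and 0 lower. Appendage partners were closer to even, 8 of 12 above 0 (median 0.10, 0.01 without agonist library 1 and 0.06 without no-agonist library 3), with Odf2 at 0.11 and Nin at 0.48. Cntrl was on that list too, but its row stands under Cep110 and is not among the 12. In that list Ttbk2, the kinase recruited by Cep164, measured 28.2, 20.99 and 37.2 CPM in agonist libraries against 12.8, 10.7 and 17.8 CPM in no-agonist libraries, apart without overlap. Ttbk2 was named for its small p-value, and of the 12 genes 3 separated higher and 1 lower (6.94% and 7.61% of all genes tested).

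Cilium genes lay in the same direction as most Cep genes. Of 22 tested genes of the transition zone and Joubert group 19 were above 0 (median 0.31, and 0.18 without agonist library 3), and of 22 intraflagellar transport genes 17 were (median 0.30, and 0.16 without agonist library 3). Cc2d2a, of the transition zone, measured 42.0, 28.5 and 38.1 CPM in agonist libraries against 21.8, 16.0 and 22.0 CPM in no-agonist libraries. Ift80, an intraflagellar transport subunit, measured 15.0, 18.2 and 21.7 CPM with the agonist against 12.0, 10.3 and 11.7 CPM without it. Both pairs of groups were apart, but these genes were named for their small p-values. All agonist libraries lay above all others for 4 of the 22 transition zone and Joubert genes and 6 of the 22 transport genes (6.94% of all genes tested). They lay below all others for 0 and 1 of them (7.61% of all genes tested).

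**Figure D4:**
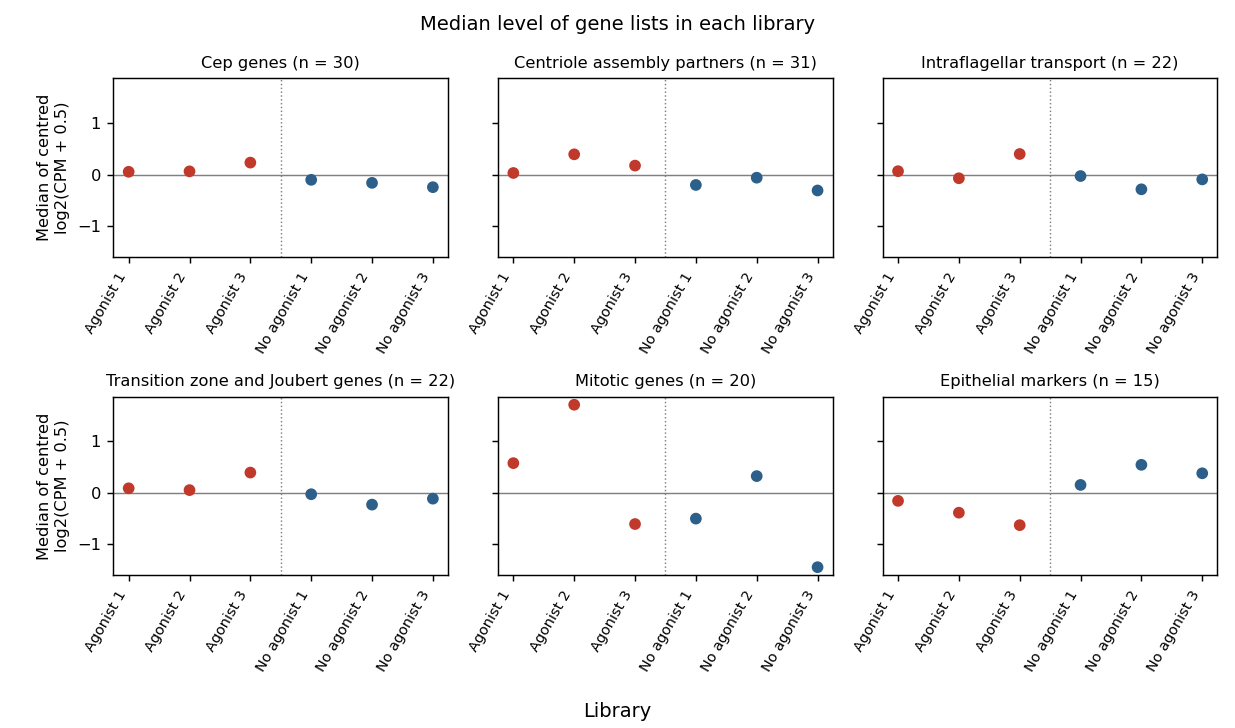
Median level of 6 gene lists in each library, as log2(CPM + 0.5) centred on the mean of each gene, agonist libraries left of the dotted line. The Cep median lies between -0.24 and 0.23, the mitotic median between -1.44 and 1.70 with agonist library 3 low, and the epithelial markers lie lower in all agonist libraries.

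Multiciliated cells copy centrioles in bulk, and their defining regulators Mcidas and Ccno had 8 reads each in all 6 libraries together and Gmnc 24. Of 18 listed genes of that cell type 6 passed the filter, 5 of them above 0. The 6 summed to 113, 129 and 202 CPM in agonist libraries against 129, 101 and 137 CPM in no-agonist libraries, most of it from 1 gene, Tppp3, at 94.4, 117 and 184 CPM in agonist libraries against 118, 87.9 and 122 CPM in no-agonist libraries. Both the sum and Tppp3 overlapped between the groups. Foxj1 measured 1.52, 2.38 and 6.77 CPM in agonist libraries against 0.302, 3.31 and 0.367 CPM in no-agonist libraries, highest in agonist library 3.

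Of the markers of epithelium, endothelium, smooth muscle and stroma, 0 passed the adjusted threshold. Among these lists the summed level was apart between the groups for the epithelial markers alone, and the leukocyte markers, given at the end, were apart as well. The epithelial markers lay below 0 in 14 of 15 (median -0.88), with a summed level of 5202 to 8032 CPM in agonist libraries and 9787 to 14862 CPM in no-agonist libraries, and agonist library 3 was the lowest. The 10 endothelial markers all lay above 0 (median 0.55), summing to 526 to 785 CPM in agonist libraries and 407 to 544 CPM in no-agonist libraries. All 10 smooth muscle markers lay below 0 (median -0.91, -1.78 without agonist library 1, -0.61 without agonist library 2 and -0.31 without no-agonist library 3), summing to 3002 to 12019 CPM in agonist libraries and 7698 to 19631 CPM in no-agonist libraries, and stromal markers were mixed, 7 of 12 above 0 with a median of 0.07, which ranged from -0.16 without no-agonist library 2 to 0.39 without no-agonist library 1, with -0.05 and 0.26 without agonist libraries 3 and 1 (4539 to 5724 CPM in agonist libraries and 4532 to 7290 CPM in no-agonist libraries). None of these defining markers was at 0. The part of these values in the levels of the Cep genes was not tested.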

How the data were processed

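RNA-seq of 6 mouse endometrium libraries was analysed from the deposited counts, whole numbers with no recorded normalization. The build was mm10 (GRCm38) and the counter HTSeq 0.6.1, per the submitters' processing notes. The aligner, the annotation, the strand setting and any filter were not given in the sources used here.

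Counts were filtered with filterByExpr, scaled by TMM factors and compared, agonist over no agonist, over all 16581 genes tested with edgeR's quasi-likelihood test (edgeR 4.0.16, R 4.3.3), without covariates and with Benjamini-Hochberg adjustment. The SE of a log2 fold change is its size divided by the square root of the F statistic. DESeq2 1.42.0 and limma 3.58.1 served as alternatives. CPM use TMM-scaled library sizes. Levels per length use the union of exons in GENCODE M21, which held all 30 Cep genes, Cep110 through its current symbol, and may differ from the annotation used for counting. Centred levels use log2(CPM + 0.5). Where RefSeq gives several starts, the one furthest upstream was taken.

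Tested on simulated data with the dispersions seen here, over 16288 genes, the test recovered 4 of 100 genes changed 2-fold and 55 of 100 changed 4-fold, with 3 false calls. Precision is thus limited for folds of the size seen among Cep genes. Libraries held 11720958 to 14104266 counts.

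The members, the roles and lists, and the rule for named genes were chosen with earlier results of these data known. Values by library were given for Cep genes with groups that do not overlap, with an unadjusted p under 0.05, named as role anchors, or among the 3 highest and 3 lowest per length. From the lists, up to 3 genes with the smallest p each and a fixed set of partners could be named, and not all of them are described. Values of 1 Cep gene are not reported here, and it stays in the counts and medians over the 30 but not in the figures.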

Additional observations from a re-analysis of the deposited data

How the results depend on the processing

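The count of Cep genes past the threshold was 0 under all 14 alternatives, and the sign of the log2 fold change held in all of them for 22 of the 30 genes, 19 above 0 and 3 below. With library totals or upper-quartile factors 26 genes lay above 0. Of 420 single-gene values under alternatives, 415 moved by less than the SD between libraries. With library totals alone the median of the Cep genes was 0.50, while the median of all genes moved to 0.18, so the excess of the Cep genes was 0.32 against 0.31 with TMM factors. Leaving out one library at a time gave a median of 0.24 to 0.33, lowest without agonist library 3, and 23 to 25 genes above 0. At an unadjusted p under 0.05 the Cep genes higher and lower were 9 and 0 with library totals (7.16% and 3.14% of all genes), 5 and 1 with upper-quartile factors (4.98% and 4.22%), and 0 to 5 and 0 to 1 with one library left out (3.1% to 5.21% and 3.14% to 6.41%), against 3 and 1 (4.17% and 5.09%). Over all genes, calls higher and lower were 141 and 253 with DESeq2, 104 and 164 with the likelihood ratio test and 8 and 28 with no filter on low counts, against 0 and 0, and with one library left out they were 0 higher and 0 to 1 lower. No paired analysis was possible because the labels share no replicate numbers between the groups. Depth limits Cep112, Cep72 and Cep85l most, with 12 to 94 counts per library.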

Other observations

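Rows listed under older symbols of Cep genes lay outside the symbol rule. Azi1, the older symbol of the satellite gene Cep131, measured 21.2, 16.3 and 17.5 CPM in agonist libraries 1 to 3, against 15.2, 19.2 and 16.5 CPM in no-agonist libraries 1 to 3 (log2 fold change 0.11). Ccdc41, the older symbol of the distal appendage gene Cep83, stood at 0.02, Fopnl (Cep20) at 0.05, 5830418K08Rik (Cep295) at 0.20, Fgfr1op (Cep43) at 0.24 and 4922501C03Rik (Cep162) at 0.37. These 6 had overlapping groups. Ccdc41os1 (Cep83os), the antisense neighbour of Ccdc41, measured 9.87, 9.98 and 12.4 CPM with the agonist against 8.76, 5.31 and 9.28 CPM without it, and its groups did not overlap. Whether its exons share bases with those of Ccdc41 was not examined, and the strand setting was not stated.

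Of the 8 leukocyte markers tested, 5 lay above 0 and 3 below, with a median log2 fold change of 0.52 (0.84 without no-agonist library 3). Their summed level lay lower in all agonist libraries, at 173, 99.2 and 91.0 CPM against 509, 277 and 566 CPM in no-agonist libraries. The macrophage gene Cd68 measured 25.6, 20.1 and 13.2 CPM in agonist libraries, against 81.8, 35.9 and 64.4 CPM in no-agonist libraries, and the integrin gene Itgam 97.4, 25.1 and 15.0 CPM with the agonist against 347, 224 and 455 CPM without it. The B-cell receptor gene Cd79a lay higher, at 2.33, 2.45 and 5.39 CPM with the agonist against 1.13, 0.348 and 0.918 CPM without it. These 3 separated the groups. The natural killer cell genes Ncr1 and Il2rb had log2 fold changes of 2.17 and 1.57, and with Ptprc (0.36), Cd3e (0.69) and Csf1r (-0.35) they had overlapping groups. Of the 8, 0 passed the adjusted threshold of edgeR's test.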
